A study of Bos taurus
Mus musculus with 10 samples.

Results

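Fibroblast identity markers are genes whose products mark fibroblasts or build the matrix that these cells lay down. The set described here holds 7 genes: THY1, PDGFRA, PDGFRB, DCN, LUM, BGN and FAP. Each was read in 2 tables of the same wells, once on bovine genes and once on mouse genes. The bovine members were taken by symbol and the mouse members by a list of their NCBI gene IDs. All 7 were found in each table, among 27590 bovine and 31349 mouse gene IDs. The mouse names rest on that list of IDs, since the files do not pair mouse IDs with names.

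The wells held bovine embryonic stem cells of lines 1, 2, 4, 8 and 11, each derived from a blastocyst of day 7.5. They grew on feeder fibroblasts from CD-1 mouse fetuses at E13.5, whose division had been stopped by mitomycin C for 2 h. The labels give the genotype as WT throughout. Each line was split over 2 wells after culture in mTeSR1 medium with 2.5 µM IWR-1. One well then received medium without IWR-1 (IWRR) and the other kept it (IWR), and both were collected on day 1. IWR-1 is a tankyrase inhibitor that dampens Wnt/beta-catenin signalling by stabilising AXIN. This gave 5 IWRR and 5 IWR libraries from whole co-cultures, so the species were separated only by the genome to which reads were assigned.

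In mouse embryonic fibroblasts the 7 genes have settled roles. THY1 is a GPI-anchored surface protein and a classical marker of fibroblasts. PDGFRA and PDGFRB are receptor tyrosine kinases for platelet-derived growth factors, which drive growth and migration of mesenchymal cells. DCN (decorin), LUM (lumican) and BGN (biglycan) are small leucine-rich proteoglycans, secreted proteins that bind collagen fibrils. FAP is a membrane-bound serine peptidase found on activated fibroblasts. None of the 7 is on the list of pluripotent stem cell markers used below, but PDGFRA is on that of trophectoderm and hypoblast markers. None of them is taken here as specific to fibroblasts. The feeders are the labelled fibroblasts in these wells.

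Recovered reads per library lay between 48064953 and 64345738 on bovine genes and between 17101894 and 35223039 on mouse genes. The share of reads on mouse genes averaged 26.8% ± 8.45 in IWRR and 30.4% ± 7.57 in IWR (SD, n = 5 each). Line 4 had the largest mouse shares, 41.4% in IWRR and 42.3% in IWR. The treatment of reads with an alignment in both species is not given in the sources consulted. Values below are normalised read counts as deposited, unless they are called reads. The 2 tables were scaled separately, so a bovine value is not set against a mouse value on that scale, and no test was run across the tables.

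Both tables held fibroblast markers, but at very different shares of their reads. The 7 genes together took 7576 to 10444 reads per 1e6 mouse reads in IWRR and 8007 to 10202 in IWR. On the bovine side they took 51.1 to 265 reads per 1e6 bovine reads in IWRR and 36.8 to 246 in IWR. The highest bovine well of each medium was that of line 4, and without it the bovine ranges were 51.1 to 119.8 in IWRR and 36.8 to 104 in IWR. In these bulk libraries fewer cells of a type and less RNA per cell cannot be told apart. In the mouse table each of the 7 genes was counted in every well, with between 155 reads (Fap) and 199398 reads (Bgn) per well, as the label of embryonic fibroblasts implies. On the bovine side 6 of the 7 were counted in every well and FAP was not.

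**Figure D1:**
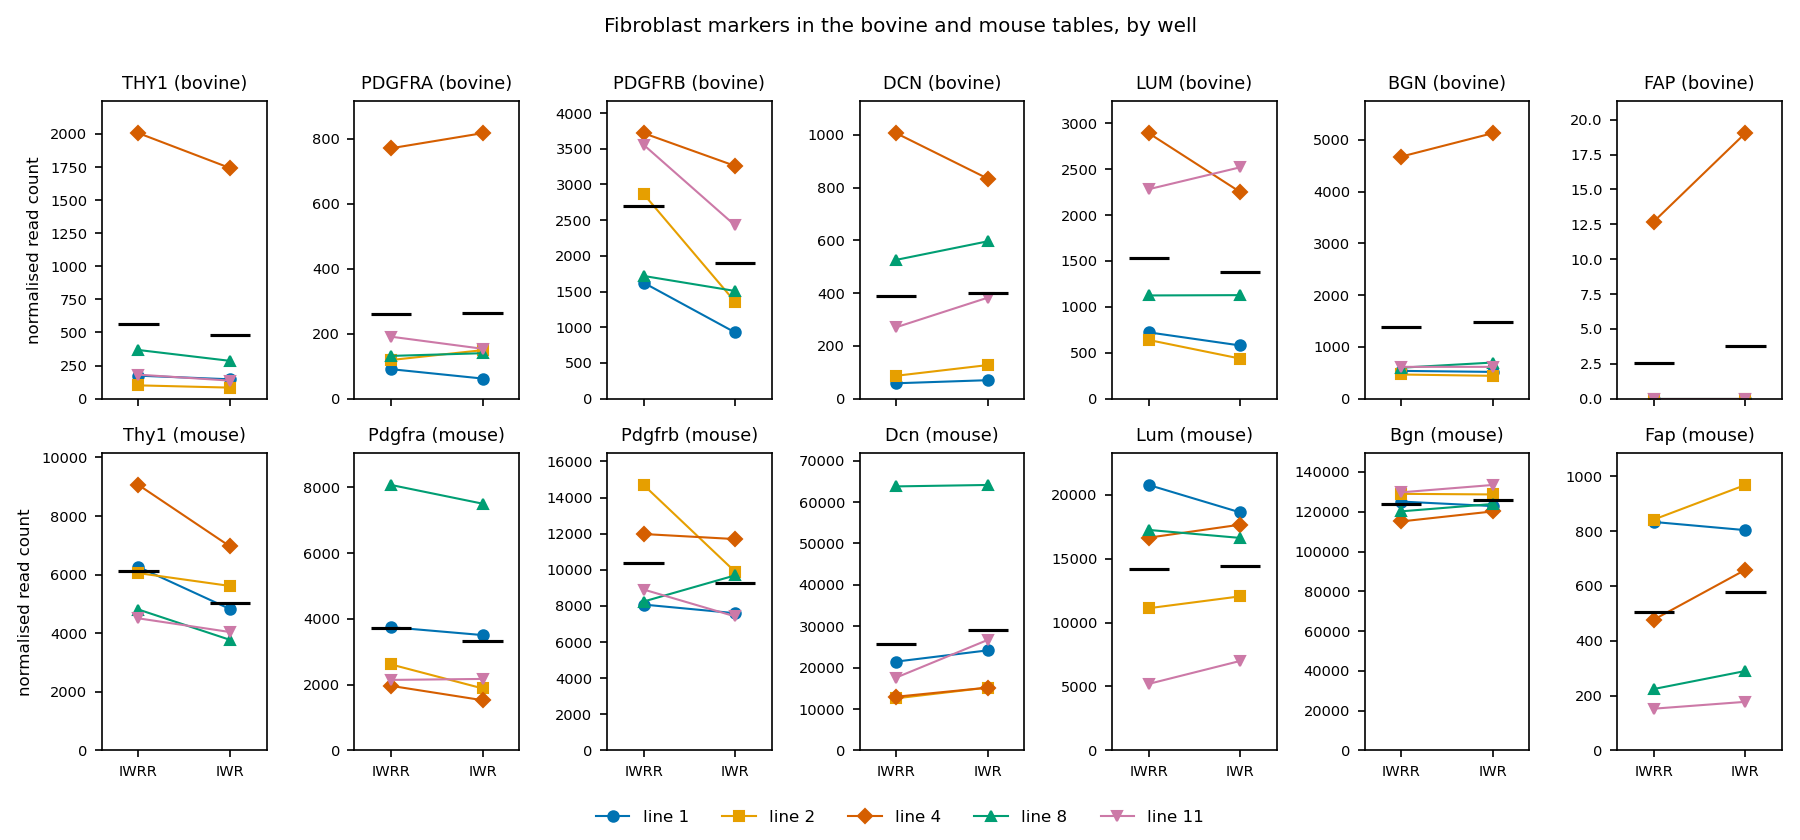
Normalised read count (linear axes starting at 0) of the 7 markers in the bovine table (top) and the mouse table (bottom), IWRR on the left and IWR on the right of each panel. Each coloured line joins the 2 wells of 1 stem cell line and black bars are means of 5 wells; line 4 is far above the others for bovine THY1, PDGFRA and BGN, and line 8 for mouse Dcn.

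THY1 was higher after IWR-1 withdrawal in 5 of 5 lines of both tables, and the mouse gene passed the test. Mouse Thy1 stood at 6260.0, 6051, 9059.8, 4808 and 4507 in IWRR wells of lines 1, 2, 4, 8 and 11, against 4823, 5612, 6961, 3772 and 4040.0 in IWR wells of the same lines. The well without IWR-1 was the higher one of each pair, while the ranges of the media overlapped. Means were 6137 ± 1802 in IWRR and 5042 ± 1292 in IWR (SD, n = 5 each). Thy1 rose by 0.27 ± 0.06 on the log2 scale (SE; limma with the line as a block, on log2 of the value plus 1; adjusted p = 0.0355 over all 15871 mouse genes tested). It was the 1 of 7 mouse members that rose, and none fell; among all tested mouse genes 4.19% were called, 2.14% rising and 2.05% falling. The call rests on single lines: it was kept without line 2 or 8 and lost without line 1 (adjusted p = 0.172), line 4 (0.181) or line 11 (0.103). It was also lost with no filter on low values (adjusted p = 0.1) and without the block, where limma called 0 mouse genes and 584 had an unadjusted p under 0.05. The share of mouse reads was lower in IWRR than in IWR in 5 of 5 lines; with that share as a covariate Thy1 had 0.43 (adjusted p = 0.851).

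Bovine THY1 was not called. It stood at 173, 100.1, 2006, 367 and 181 in IWRR wells of lines 1, 2, 4, 8 and 11, against 146, 83.0, 1742, 285 and 136 in IWR wells. Line 4 was highest in both media and line 2 lowest. The within-line changes lay between 0.20 and 0.41 on the log2 scale, but with 79 to 405 reads per well outside line 4 the counting error alone of such a change was 0.11 to 0.22. THY1 had a log2 fold change of 0.30 ± 0.09 SE (limma adjusted p = 0.247 over 18506 bovine genes).

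The platelet-derived growth factor receptors differed from each other. Bovine PDGFRB stood at 1624, 2867, 3719, 1718 and 3556 in IWRR wells of lines 1, 2, 4, 8 and 11, against 926, 1354, 3259, 1508 and 2425 in IWR wells. Every line was higher without IWR-1, by 0.81, 1.08, 0.19, 0.19 and 0.55 on the log2 scale, and each change was at least 3 times its counting error of 0.04 to 0.06. Means were 2697 ± 990 in IWRR and 1895 ± 939 in IWR (SD, n = 5 each). The log2 fold change of 0.56 ± 0.12 SE missed the threshold (limma adjusted p = 0.0613), passed it without line 8 (0.66, adjusted p = 0.0489) and with DESeq2 on recovered reads (0.56, adjusted p = 0.000298), and missed it in edgeR (adjusted p = 0.0644).

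Mouse Pdgfrb stood at 8075, 14698, 11982, 8244 and 8909.5 in IWRR wells, against 7598, 9893, 11702, 9693 and 7420.1 in IWR wells. It was higher without IWR-1 in 4 of 5 lines and lower in line 8. The log2 fold change was 0.14 ± 0.10 SE (limma adjusted p = 0.541), or 0.04 without line 2. In both tables line 2 had the largest increase of the 5 lines, 1.08 for the bovine and 0.57 for the mouse gene.

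Bovine PDGFRA stood at 90.6, 119, 771, 131 and 191 in IWRR wells of lines 1, 2, 4, 8 and 11, against 61.8, 149, 817, 139.8 and 153 in IWR wells. Line 4 was several times above the rest, and the changes went both ways, from -0.33 in line 2 to 0.55 in line 1. Its log2 fold change was 0.07 ± 0.14 SE (limma adjusted p = 0.951). Mouse Pdgfra stood at 3748, 2616, 1964, 8075 and 2145 in IWRR wells, against 3508, 1886, 1527, 7505 and 2174 in IWR wells. In the mouse table line 8 was highest and line 4, the highest bovine line, was lowest in both media. Pdgfra was higher without IWR-1 in 4 of 5 lines and was not called (0.20 ± 0.08 SE, limma adjusted p = 0.198).

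Decorin had a negative log2 fold change in both tables, without passing the test in either. Bovine DCN stood at 58.1, 86.5, 1006, 526 and 270.5 in IWRR wells of lines 1, 2, 4, 8 and 11, against 69.9, 127, 834, 596 and 383 in IWR wells. IWRR was below IWR in lines 1, 2, 8 and 11 and above it in line 4, by 0.27 on the log2 scale. Its log2 fold change was -0.24 ± 0.13 SE (limma adjusted p = 0.608), or -0.37 without line 4. Mouse Dcn stood at 21455, 12582, 12967, 63778 and 17595 in IWRR wells, against 24173, 15178, 15169, 64126 and 26689.8 in IWR wells. The mouse gene was lower in 5 of 5 lines, by 0.01 in line 8 and 0.60 in line 11 at the extremes. Dcn had -0.26 ± 0.08 SE (limma adjusted p = 0.13) and was called without line 8 (-0.32, adjusted p = 0.0328) and with DESeq2 (-0.26, adjusted p = 0.048).

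Lumican had different line orders in the 2 tables. Bovine LUM stood at 722, 639, 2894, 1124 and 2282 in IWRR wells of lines 1, 2, 4, 8 and 11, against 579, 436, 2251, 1128 and 2522 in IWR wells. Lines 4 and 11 were high and lines 1 and 2 low. Mouse Lum stood at 20755, 11119, 16634, 17239 and 5202 in IWRR wells, against 18607, 12047, 17652, 16614 and 6998 in IWR wells, so line 1 was highest and line 11 lowest. LUM was higher without IWR-1 in 3 of 5 lines (log2 fold change 0.22 ± 0.10 SE, limma adjusted p = 0.497) and Lum in 2 of 5 (-0.08 ± 0.08 SE, adjusted p = 0.712); neither was called.

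Biglycan hardly moved with the medium. Bovine BGN stood at 536, 466, 4679, 598 and 614 in IWRR wells of lines 1, 2, 4, 8 and 11, against 516, 440.2, 5132, 697 and 614 in IWR wells. Outside line 4 its values were within 1 narrow band, and line 4 was 8.45 times the mean of the other lines in IWRR and 9.05 times in IWR. Mouse Bgn had the smallest relative spread of the 7 mouse genes. It stood at 125111, 128999, 115125, 120202 and 129754 in IWRR wells, against 122837, 128695, 120162, 123901 and 133459.6 in IWR wells, with line 4 lowest in both media. Log2 fold changes were -0.04 ± 0.07 SE for BGN (limma adjusted p = 0.934) and -0.02 ± 0.09 SE for Bgn (adjusted p = 0.945).

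FAP was the 1 bovine member below the filter (10 or more in no fewer than 5 libraries), so it was not tested there. It had 11 reads in the IWRR well and 16 reads in the IWR well of line 4, and 0 reads in each of the 8 wells of lines 1, 2, 8 and 11. In normalised terms line 4 stood at 12.7 in IWRR and 19.0 in IWR. With 3 reads per library as the limit that a count of 0 allows, line 4 was at least 4.06-fold higher than the other lines in IWRR and at least 6.04-fold higher in IWR. The change within line 4 was -0.55 on the log2 scale, with a counting error of 0.57. Such limits and counting errors cover counting only, since reads without molecular identifiers are not independent molecules.

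Mouse Fap stood at 833, 842, 477, 224 and 152 in IWRR wells of lines 1, 2, 4, 8 and 11, against 803, 968, 659, 289.6 and 177 in IWR wells. Lines 1 and 2 were high and lines 8 and 11 low in both media. Withdrawal went with a lower Fap value in 4 of 5 lines, and the gene was not called (-0.24 ± 0.09 SE, limma adjusted p = 0.196).

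**Figure D2:**
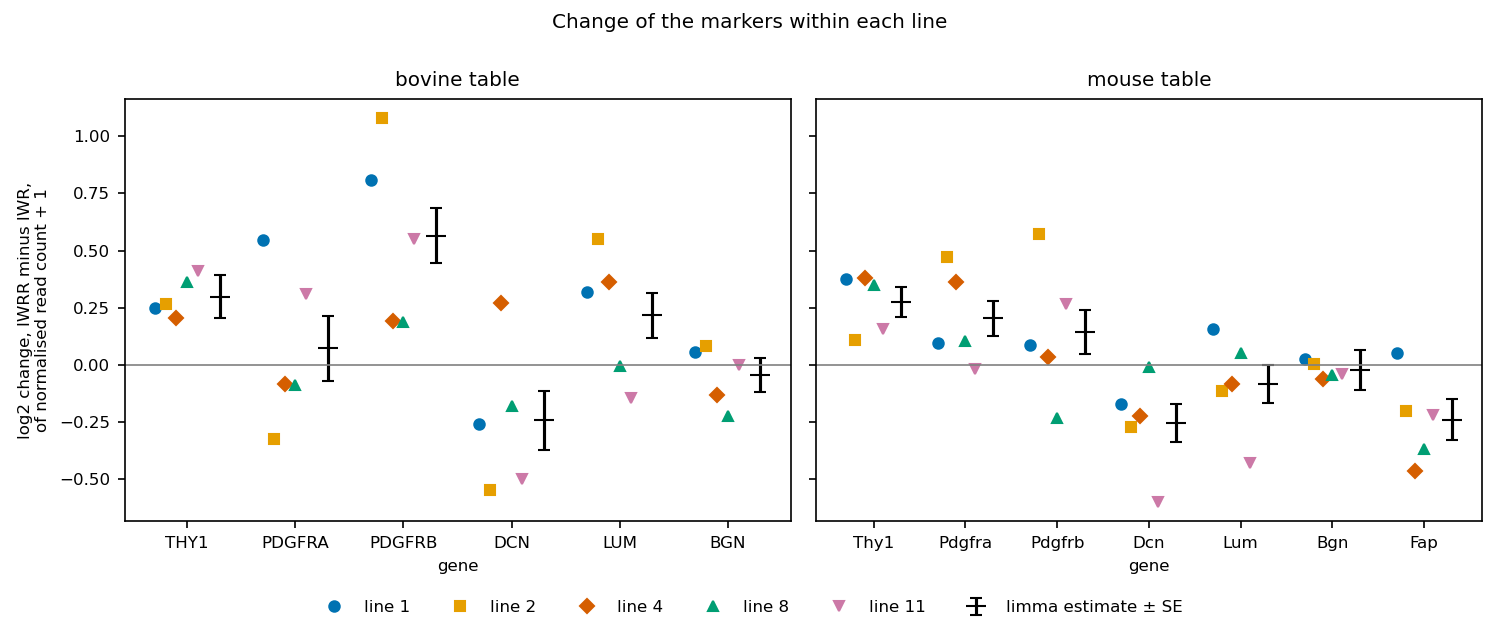
Log2 change of each marker, IWRR minus IWR, within each stem cell line (coloured symbols) and the limma estimate with its SE (black), for the bovine table (left, without FAP) and the mouse table (right). THY1 is above 0 in 5 of 5 lines of both tables, bovine PDGFRB in 5 of 5, and mouse Dcn is below 0 in 5 of 5.

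With limma 0 of the 6 tested bovine members were called, with 2 at an unadjusted p under 0.05, against 0.951% called among all tested bovine genes (0.886% rising and 0.0648% falling); edgeR called 0 and DESeq2 called 1. Of the 6, 2 were higher without IWR-1 in 5 of 5 lines and 0 were lower, where 6.2% and 4.92% of all tested bovine genes were. Of the 7 mouse members, 1 was higher and 1 lower in 5 of 5 lines, where 7.83% of all tested mouse genes were in each direction. No member had media whose values did not overlap, as 0.113% of bovine and 0.554% of mouse genes did. The log2 fold change was positive for 4 of the 6 bovine and 3 of the 7 mouse members, against 48.4% of bovine and 49.9% of mouse genes tested. The median log2 fold change was 0.14 over the 6 bovine members and -0.02 over the 7 mouse members; over all tested genes it was -0.00463 and -0.000414.

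Lines differed more than media. Differences between lines made up 73.5% (PDGFRB) to 99.8% (BGN) of the total variation of log2 values (as a sum of squares) in the tested bovine members, and the median over all tested bovine genes was 84.5%. For the mouse members that share ran from 75.5% (Pdgfrb) to 97.7% (Fap), with a median of 69.6% over all tested mouse genes. The medium took 19.2% for bovine PDGFRB and 14.1% for mouse Thy1, the largest shares in each table's set, and the medians over all genes were 1.71% for bovine and 4.66% for mouse genes. The labels do not say whether the feeders of the wells came from separate preparations; if not, the mouse p-values measure only the spread between wells.

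The next comparison set the 2 species side by side in each well, as a view on how reads were assigned. For each marker the recovered bovine reads were divided by the recovered mouse reads of the same well. Gene lengths and total reads of the 2 genomes differ, so the ratio has no absolute meaning across genes, but if bovine reads of a marker were a fixed fraction of the mouse reads it would be the same in every well up to counting error. Over all genes there were 142 to 372 bovine reads per 100 mouse reads in IWRR and 136 to 327 in IWR, with line 4 lowest in both media.

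The ratios varied within each marker. Decorin had 0.338, 0.802, 4.04, 1.10 and 1.55 bovine reads per 100 mouse reads in IWRR wells of lines 1, 2, 4, 8 and 11, against 0.322, 0.783, 2.78, 1.04 and 1.06 in IWR wells. Its order by line was the same in both media, and line 4 exceeded line 1 by a wide margin although its mouse Dcn level was among the lowest. For biglycan the ratios were 0.535, 0.422, 2.11, 0.663 and 0.478 in IWRR wells, against 0.468, 0.320, 2.16, 0.626 and 0.340 in IWR wells. Biglycan outside line 4 thus had the narrowest relative band of the 6 markers counted in every bovine well, 0.320 to 0.663, and line 4 stood above it.

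Lumican had the largest single ratio of the set, 44.3 in the IWRR well of line 11, and 26.6 in its IWR well. The other lumican ratios were 4.35 to 9.05 in IWRR wells and 3.39 to 7.56 in IWR wells. PDGFRB had between 16.1 and 40.3 in IWRR wells and between 12.8 and 24.1 in IWR wells, with line 11 highest in both media. PDGFRA ran from 2.17 to 20.4 in IWRR and from 2.07 to 27.1 in IWR, and THY1 from 1.93 to 11.5 in IWRR and from 1.38 to 12.7 in IWR, both highest in line 4. For each marker counted in every well, the highest ratio was 3.15 times (PDGFRB) to 13.8 times (PDGFRA) the lowest.

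FAP gives the lowest limit. The 8 wells of lines 1, 2, 8 and 11 held 3935 mouse Fap reads and 0 bovine FAP reads, which allows up to 0.0762 bovine reads per 100 mouse reads (3 reads over the 8 wells). The 2 wells of line 4 had 1.39 in IWRR and 1.46 in IWR. So for this gene a share of mouse reads counted on the bovine gene was not detectable outside line 4 at this depth.

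The lowest ratio of a marker was then applied to the mouse reads of line 4, as a scale for its bovine counts. For decorin the lowest ratio would put 69.4 bovine reads in the IWRR well and 80.9 in the IWR well, against 872 and 701 counted. For biglycan it would put 613 and 638, against 4054 and 4313 counted, and for THY1 209 and 159.8, against 1738 and 1464 counted. For PDGFRA the pair was 64.1 and 49.6, against 668 and 687 counted. Lumican was nearer, with 938 and 992 against 2507 and 1892 counted. PDGFRB came nearest, with 2555 and 2486 against 3222 and 2739 counted; its lowest ratio is itself high, so it limits little. The lowest ratio comes from the same 10 wells, so no well can lie below it, and an excess was not limited to line 4. THY1 in line 8, at 10.2 in IWRR and 8.42 in IWR, stood far above its lowest ratio of 1.38, and so did LUM in line 11 above its lowest of 3.39.

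**Figure D3:**
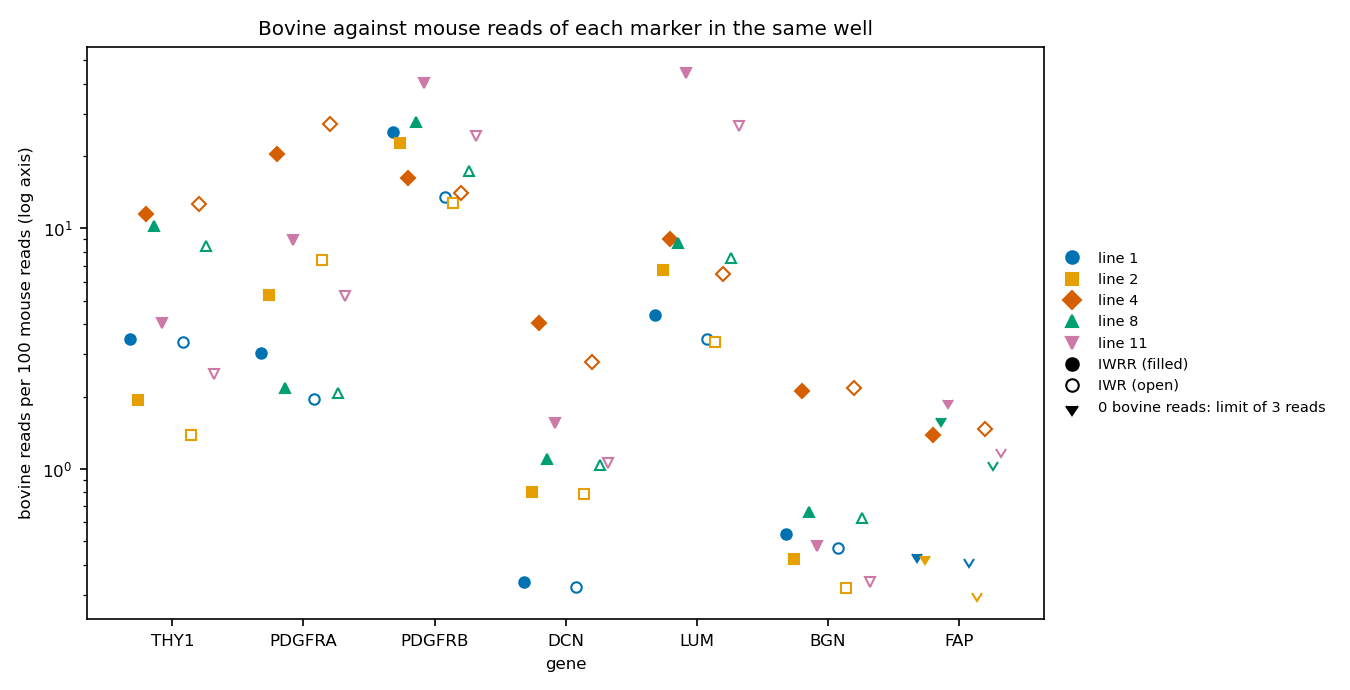
Recovered bovine reads per 100 recovered mouse reads of the same marker in the same well (log axis), filled for IWRR and open for IWR, by line. Small downward marks for FAP show wells with 0 bovine reads, drawn at the limit of 3 reads; line 4 is highest for THY1, PDGFRA, DCN and BGN, and line 11 for PDGFRB and LUM.

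The level of line 4 was also read over lists of related bovine genes, with the 7 markers left out of each sum. In both media line 4 was the top line for 5 of the 6 tested bovine members, all but LUM, and lowest for none of them; 19.1% of all tested bovine genes were highest there and 18.4% lowest. In the mouse table it was the top line in both media for 1 of 7 members (Thy1) and lowest for 2 (Pdgfra and Bgn), with 6% and 7.62% of all tested mouse genes at those ends. A wider list of fibroblast and mesenchyme genes had 20 of 32 tested bovine genes highest in line 4 in both media and 1 lowest. Their sum was above that of the other lines too, at 606027 in IWRR and 556625 in IWR of line 4, against 223517 to 477841 in IWRR and 207527 to 442988 in IWR. Of the small leucine-rich proteoglycans other than DCN, LUM and BGN, 4 of 10 were highest in line 4 in both media and 1 lowest. Their sum of 2658 in IWRR and 2594 in IWR lay within the other lines, at 721 to 2930.4 in IWRR and 745 to 3372 in IWR. PRELP had the largest mean in it, and its line 4 wells, at 650 in IWRR and 745 in IWR, were within the range of the others. ECM2 stood at 735 in IWRR and 669 in IWR of line 4, against at most 182 in IWRR and 152 in IWR elsewhere. OGN stood at 486 in IWRR and 344 in IWR of line 4, against at most 33.4 in IWRR and 13.6 in IWR elsewhere. ASPN (asporin) of the same family was below the filter, with 284 reads in IWRR and 269 in IWR of line 4 and 1 to 18 reads in the wells of the other lines. The sum of PDGF ligands and class III receptor tyrosine kinases was above the other lines in both media. Of 9 tested there, 3 were highest in line 4 in both media and 0 lowest. The DPP4 family summed to 18331 in IWRR and 18780 in IWR of line 4, against at most 17674 in IWRR and 16816 in IWR. Of its 6 tested genes 3 were highest there and 0 lowest.

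Markers of other cells moved with line 4 to differing degrees. Pluripotent stem cell markers, headed by POU5F1 and DNMT3B, summed to 101379 in IWRR and 104181 in IWR of line 4, below the other lines, which had 112171 to 205273 in IWRR and 120967 to 206023 in IWR. So the sum of stem cell markers was lowest in line 4, where that of the wider fibroblast genes was highest. Of 9 tested stem cell markers 0 were highest and 5 lowest in line 4 in both media. DNMT3B, NANOG and EPCAM were within the range of the other lines in both media. POU5F1 was within it in IWRR (21776 against 18294 to 58134) and below it in IWR. Early mesoderm markers summed to 562 in IWRR and 481 in IWR of line 4, against 283 to 407 in IWRR and 292 to 368 in IWR of the others. Of 4 tested on that list 2 were highest in line 4 in both media and 1 lowest. The lowest was TCF15, at 43.9 in IWRR and 60.7 in IWR of line 4, against 103 to 214 in IWRR and 105 to 165 in IWR. TBXT, below the filter, had 148 reads in IWRR and 64 in IWR of line 4 and at most 3 elsewhere. The sum of endothelial markers was lower in line 4, at 1042 in IWRR and 1099.5 in IWR, against 1807 to 4101 in IWRR and 1221 to 3185 in IWR of the others. KDR and TEK had the largest means in it. Of 6 tested, 2 were lowest (TEK and VWF) and 0 highest in line 4 in both media. KDR in IWR was within the range of the other lines. CDH5 (38.1 against at most 30.5) and PECAM1 (15.0 against at most 11.8) were above the other lines in IWRR. Below the filter, ERG had 20 reads in IWRR and 16 in IWR of line 4 and at most 9 elsewhere. EMCN had 3 in IWRR and 1 in IWR of line 4 and at most 8 elsewhere. Pericyte and smooth muscle markers stood at 27984 in IWRR and 26374 in IWR of line 4, against 10650 to 27044 in IWRR and 10226 to 22793 in IWR of the others. Blood cell markers stood at 301 in IWRR and 290.3 in IWR of line 4, against 201 to 254 in IWRR and 236 to 289 in IWR of the others. Both of these sums were above those of the other lines, by little for pericyte and smooth muscle markers in IWRR and for blood cell markers in IWR. Of 7 tested pericyte and smooth muscle markers 2 were highest in line 4 in both media and 0 lowest. The 2 tested blood genes went opposite ways. CD68 was highest in line 4 in both media (269 in IWRR and 246 in IWR) and LCP1 lowest (24.2 in IWRR and 34.5 in IWR). Trophectoderm and hypoblast markers without PDGFRA stood at 136 in IWRR and 45.2 in IWR of line 4, against 50.8 to 108 in IWRR and 85.2 to 126 in IWR of the others. They were thus above the other lines in IWRR and below them in IWR. CDX2 of the trophectoderm had 75 reads in the IWRR well of line 4, 1 in its IWR well and at most 1 elsewhere. Some genes of the blood and of the trophectoderm and hypoblast lists were scarce. The blood gene TYROBP was at 0 in every library, PTPRC had at most 11 reads, and SOX17 and GATA4 of the hypoblast had at most 2. Others were not: FOXA2 averaged 24.4 in IWRR and 50.3 in IWR, GATA6 averaged 20.1 and 19.0, and both passed the filter. GATA3, below the filter, reached 33 reads outside line 4. Line 4 also had the largest share of mouse reads. The part of these measures in the values of line 4 was not tested.

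**Figure D4:**
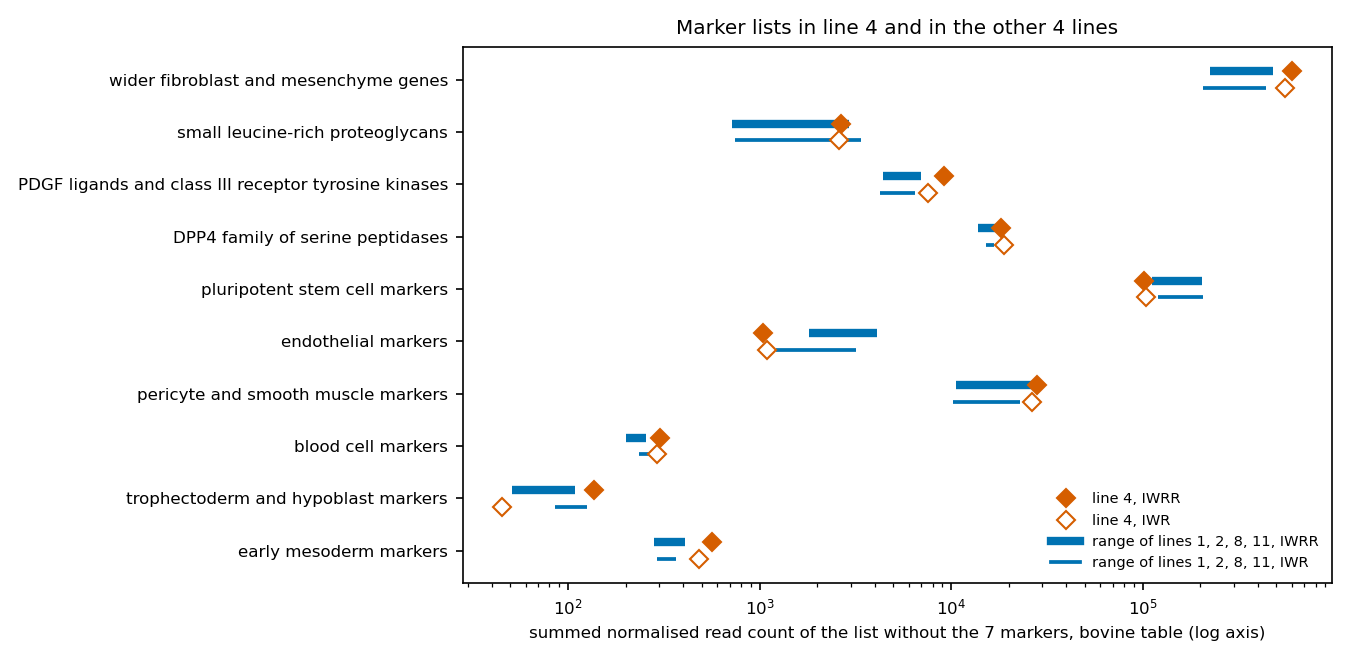
Summed normalised read count of each marker list in the bovine table (log axis): line 4 as diamonds, filled for IWRR and open for IWR, and the range of lines 1, 2, 8 and 11 as bars, thick for IWRR and thin for IWR. The 7 markers are left out. In both media line 4 lies above the other lines for wider fibroblast genes, PDGF ligands and receptors, and the DPP4 family. It also lies above them for pericyte and smooth muscle, blood cell and early mesoderm markers. Proteoglycans lie within their range, and pluripotent and endothelial markers below it. Trophectoderm and hypoblast markers lie above it in IWRR and below it in IWR.

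Genes related to the markers by function were read for the medium as well. Among all tested bovine genes 0.886% rose and 0.0648% fell, which is the background for the counts of each list. On the list of PDGF ligands and class III receptor tyrosine kinases 1 of 11 tested genes rose and 0 fell. That gene was PDGFB, which encodes a ligand of PDGFRB. It averaged 264 ± 86.4 in IWRR and 145 ± 57.5 in IWR (SD, n = 5 each) and was higher in 5 of 5 lines (log2 fold change 0.88 ± 0.14 SE, limma adjusted p = 0.0188). Its line 4 wells, at 317 in IWRR and 179.7 in IWR, were within the range of the other lines, 133 to 328 in IWRR and 86.2 to 217 in IWR. The call was lost without line 1 (adjusted p = 0.0611) or line 11 (0.0722), and with no filter on low values (0.0579).

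On the wider fibroblast list 2 of 32 tested genes rose and 0 fell, against 0.886% and 0.0648% of all tested bovine genes. The log2 fold change of 20 was above 0 (median 0.06), where 48.4% of all tested bovine genes were positive (median -0.00463). The 2 that rose were TAGLN (0.90 ± 0.08 SE) and ACTA2 (0.87 ± 0.09), which encode an actin-binding protein and smooth muscle actin. Either call held whichever of the 5 lines was left out. Without the block, or with the mouse share as a covariate, limma called 0 bovine genes, so every call on these lists was lost. With the covariate TAGLN had 0.76 and ACTA2 0.59. CNN1 (calponin, 0.59 ± 0.09, limma adjusted p = 0.0207) was the 1 of 7 pericyte and smooth muscle markers that rose, but its call was kept only without line 2 or 8. TEK, an angiopoietin receptor, was the 1 of 6 endothelial markers that rose (0.59 ± 0.11, limma adjusted p = 0.0328); without line 1 or 11 it was not called. The pluripotency gene NANOG rose by 0.33 ± 0.06 (limma adjusted p = 0.0411), 1 of 9 on its list, and was called without line 8 but in no other fit that leaves out 1 line. With no filter on low values CNN1 (adjusted p = 0.0641), TEK (0.0915) and NANOG (0.0821) were not called by limma.

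In the proteoglycan family 0 of 13 tested genes were called by limma, with 0 at an unadjusted p under 0.05 and 0 called by edgeR or DESeq2; with 0.951% of all bovine genes called, a count of 0 is near the background. ECM2 had 0.32 ± 0.16 SE (limma adjusted p = 0.55) and OGN 0.60 ± 0.32 (adjusted p = 0.605). On a list of the DPP4 family, to which FAP belongs, with the more distant relatives PREP and PREPL, 0 of 6 tested genes were called by limma. Of these 1 had an unadjusted p under 0.05. That was DPP10, a relative without peptidase activity, at 0.66 ± 0.14 SE (limma adjusted p = 0.0534); edgeR and DESeq2 called it (adjusted p = 0.0488 and 0.00272). On the blood, trophectoderm and hypoblast, and early mesoderm lists 0 of 2, 0 of 3 and 0 of 4 tested genes were called by limma, with 0 at an unadjusted p under 0.05 and 0 called by edgeR or DESeq2.

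Genes next to the markers were read in line 4 as well. Neighbours were read from the RefSeq order of protein-coding genes in assembly ARS-UCD2.0. LUM and DCN lie next to each other, with KERA (keratocan) on the far side of LUM and BTG1 on the far side of DCN. KERA had 15 reads in IWRR and 4 in IWR of line 4 and 0 reads in the wells of the other lines, while BTG1 stood at 3265 to 3823 in line 4 and 2391 to 3695 in the others. PDGFRA is followed by KIT and KDR, which encode related receptor tyrosine kinases. KIT stood at 866 to 1115 in line 4, within the 762 to 2555 of the others, and KDR at 494 to 633, near the low end of their 569 to 2295. CSF1R, the neighbour of PDGFRB, stood at no more than 23.3 in any well, and ATP2B3, next to BGN, was lower in line 4 (112 to 113) than in the other lines (158 to 289.7).

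The bovine genes most like the set were sought by Pearson's r over log2 values with the mean of the 6 tested members, each standardised. Over the 10 libraries the 4 highest were SEC24D, a coat protein of secretory vesicles (0.995), the transcription factor gene CASZ1 (0.989), the collagen gene COL5A3 (0.986) and IQCK (0.986). All 4 were higher in line 4 than in any well of the other lines, as for SEC24D with 1351 to 1386 against 423 to 777. Over the 8 libraries without line 4 the 5 highest were others: PLEKHH2 (0.992), SLC6A16 (0.992), ACADL (0.987), CHST15 (0.978) and GAB1 (0.977). The libraries come in pairs from 5 lines, so these values are descriptions. The members themselves had r between 0.780 (PDGFRB) and 0.951 (PDGFRA) with their mean over 10 libraries and between 0.598 (PDGFRB) and 0.891 (LUM) without line 4.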

How the data were processed

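Poly(A) RNA of 10 co-culture wells was sequenced. Per the labels, alignment was to ARS-UCD1.3 for cattle and GRCm39 for mouse. Tools listed without roles in the submitters' processing notes are featureCounts 1.5.0-p3, StringTie 1.3.3b, HISAT2 2.0.5 and fastp. The authors deposited a normalised signal (read count after scaling) for each gene and library, bovine and mouse apart. In each library every positive value was a whole multiple of 1 step, so dividing by it gave whole reads for 100% of positive values (tolerance 0.01 reads); no label records this scaling. The mouse table held 2 sample columns without a label, which were not used. Bovine symbols came from RefSeq (24660 of 27590 IDs matched). No sequence of the members was used here.

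Changes are IWRR over IWR from limma 3.58.1 (R 4.3.3), with its trend option, on log2(value + 1), which understates changes of low genes. Genes below 10 in more than 5 libraries were left out. The line was a block because each line gave 1 well per medium; deviations of the paired wells correlated at 0.617 to 0.883 (bovine) and 0.488 to 0.725 (mouse). A gene was called at a Benjamini-Hochberg adjusted p under 0.05 over all genes of its table; "rose" and "fell" refer to calls. Alternatives were edgeR 4.0.16, DESeq2 1.42.0, TMM scaling, pseudocount 10, no filter, no block and each line left out; the mouse share as a covariate and list sums without the 7 members were added after seeing the data. The fits were checked on simulated data. The members, lists and tests were chosen with earlier results of these data known. Named are the members, genes called on each list or otherwise up to 4 with the smallest p, and the 5 genes most alike, of which 1 over the 10 libraries is not reported here.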

Additional observations from a re-analysis of the deposited data

Results flagged for a closer look

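In groups of 5 wells a value was marked where its gap to the nearest well was above Dixon's 95% critical value for the group's range; chance marks about 1 group in 20, and the values of a line in its 2 media are not independent. In the bovine table line 4 was marked for 4 of the 7 markers in both media. Among all tested bovine genes 19.1% were highest in line 4 in both media, and the share marked there was not counted. THY1 stood at 2006 in IWRR and 1742 in IWR, PDGFRA at 771 in IWRR and 817 in IWR, and BGN at 4679 in IWRR and 5132 in IWR. FAP stood at 12.7 in IWRR and 19.0 in IWR, where the other lines were at 0. With the other lines at 0 any value above 0 would be marked, so the mark of FAP adds nothing to its 11 and 16 reads. In the mouse table line 8 was marked for Dcn, at 63778 in IWRR and 64126 in IWR, against 12582 to 21455 in IWRR and 15169 to 26689.8 in IWR for the other lines. Line 8 was the second highest line of bovine DCN in both media, at 526 in IWRR and 596 in IWR.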

How the results depend on the processing

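The main count of 176 bovine genes called became 0 with no replicate block, 53 with no filter on low values, 420 with DESeq2, 31 to 184 with 1 line left out and 0 with the mouse share as a covariate. The 665 mouse genes called became 0 with no block, 329 with no filter, 269 to 936 with 1 line left out and 0 with the covariate. Bovine members called were 0, or 1 with DESeq2 and 0 to 1 with 1 line left out. Mouse members called were 1, or 0 with no block, no filter or the covariate, 2 with DESeq2 and 0 to 2 with 1 line left out. With no block 105 bovine and 584 mouse genes had an unadjusted p under 0.05, and with the covariate 456 and 687. The block changed no other call of a member. Fold changes that changed sign were those of PDGFRA (-0.047 without line 1, 0.17 without line 2; the range with 1 line left out), BGN (-0.075 without line 2, 0.000717 without line 8), Lum (-0.144 without line 1, 0.00237 without line 11), and, with the covariate, DCN (0.19), OGN (-0.11), Lum (0.17) and Pdgfrb (-0.000296); none of these was called in either fit, and the cause was not tested. Without the filter, FAP had -0.11 in the bovine table. Bovine THY1, PDGFRA and DCN are limited by depth, with 59 to 79 reads in their lowest wells.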
